A study of Mus musculus with 6 samples.

Results

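The endosomal, lysosomal and autophagy machinery of mouse pancreatic islets was examined as 129 of 21883 protein-coding genes of the GRCm38 RefSeq table. Members were chosen by symbol, with earlier results of these data known. They were the Atp6v genes of the V-ATPase (23), the Vps genes (35), the sorting nexins (Snx, 30) and the ESCRT-III subunits (Chmp, 10). The others were the Ragulator subunits (Lamtor, 6), the Atg genes (18) and the 7 regulators Becn1, Ulk1, Ulk2, Wipi1, Wipi2, Sqstm1 and Tfeb. A choice by symbol also admits a few genes of other function, such as Vps72, which encodes a chaperone of the histone variant H2A.Z, and Lamtor3-ps, whose symbol ends as a pseudogene's does. The assay was ATAC-seq, a method that cuts and tags accessible DNA with the transposase Tn5. A gene was called marked in a library when a peak of that library's list overlapped 1000 bp on either side of its lower or its higher coordinate, called a gene end here.

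Islets came from 16-week-old mice, and each of 3 groups held 2 libraries. Islets of the mice named βRicKO, which lack Rictor in beta cells, received an adenovirus carrying Acsl4 in the libraries knockout-Acsl4 1 and 2. Islets of such mice received an adenovirus carrying GFP in the libraries knockout-GFP 1 and 2. Islets labelled wildtype received the GFP virus in the libraries control-GFP 1 and 2. All islets were thus virus-treated, for 48 h ex vivo, and about 50 whole islets entered each sample, so cells other than beta cells could contribute to every list. The labels give neither the Cre driver, nor the viral promoter, nor whether the 2 libraries of a group stem from different mice, so the variation behind a p-value here may be technical in part or in whole. Rictor carried no gene-end peak in any library and Acsl4 only in control-GFP 1, so these marks do not check the labels.

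Endosomes sort internalised receptors either back to the surface and the Golgi or into lysosomes. The V-ATPase acidifies these compartments, retromer and the sorting nexins recycle cargo, and the ESCRT complexes bud cargo into the lumen of multivesicular bodies. Autophagy encloses cytoplasm in a double membrane built by the ATG proteins and delivers it to the lysosome, where Ragulator recruits mTORC1 and where the transcription factor TFEB, which binds the sequence CACGTG within a longer element, is regulated. In beta cells these routes also dispose of old insulin granules.

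The lists differed widely before any gene was considered. They held 525 and 5874 peaks in knockout-Acsl4 1 and 2, 2206 and 4257 in knockout-GFP 1 and 2, and 4442 and 1628 in control-GFP 1 and 2. The share of peaks at a gene end ran from 5.28% in knockout-Acsl4 2 to 75.5% in knockout-GFP 2, and was 21.7% in control-GFP 2. Of 10 beta cell markers, Nkx6-1 and Mafa were marked, each in 2 libraries, while Ins1, Ins2 and Pdx1 were not, and 0 of 19 markers of other endocrine, acinar, ductal, endothelial, stromal and immune cells were marked in any library. Read depth is unknown, so a gene without a peak was not called, which does not show closed chromatin. In whole islets, fewer cells with an open site and a site less open in each cell cannot be told apart.

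Open gene ends of the machinery were found chiefly in 3 libraries. In knockout-Acsl4 1 and 2, 1 and 3 of 129 members were marked, a share of 0.775% (95% exact Clopper-Pearson interval 0.0196 to 4.24) and 2.33% (0.482 to 6.65). In knockout-GFP 1 and 2 the counts were 19 and 41, a share of 14.7% (9.11 to 22.0) and 31.8% (23.9 to 40.6). In control-GFP 1 and 2 they were 41 and 7, a share of 31.8% (23.9 to 40.6) and 5.43% (2.21 to 10.9). The intervals cover counting error only. Over all protein-coding genes the marked share was 1.02% and 1.57% in knockout-Acsl4 1 and 2, 8.19% and 17.3% in knockout-GFP 1 and 2, and 16.7% and 2% in control-GFP 1 and 2. The members' share was thus 1.80 to 2.71 times that of all genes in the 4 GFP libraries, and 0.757 and 1.48 times in knockout-Acsl4 1 and 2. These ratios make no allowance for the base composition of promoters. As members were chosen with earlier results of these data known, their shares against all genes describe this choice and test no excess.

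**Figure D1:**
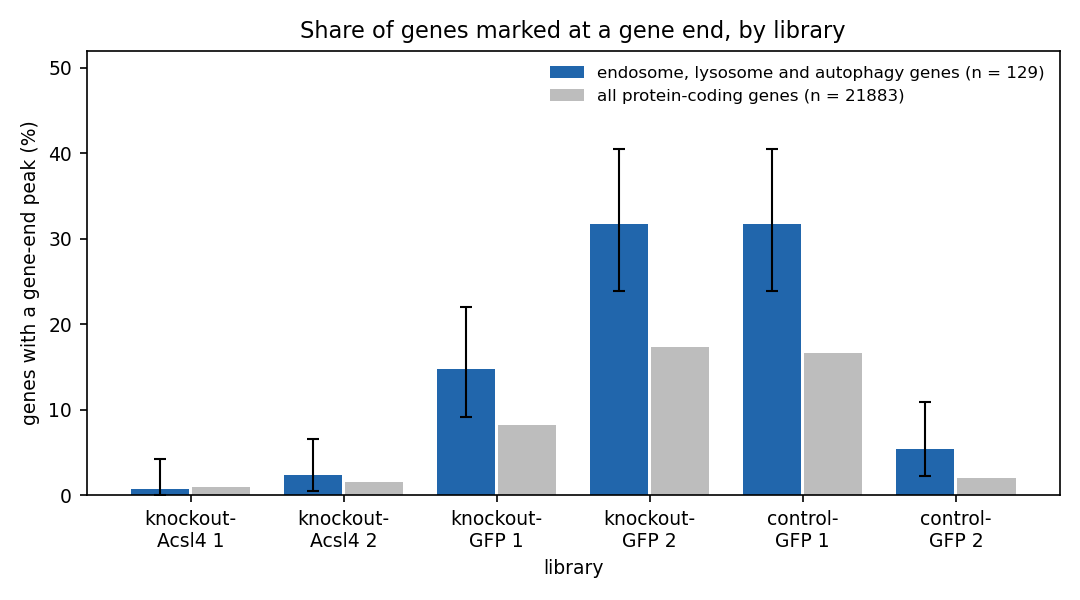
Percent of genes with a gene-end peak (y axis) in each of 6 libraries (x axis), for the 129 members (blue, with exact 95% intervals) and all 21883 protein-coding genes (grey). The members stood at 31.8% in knockout-GFP 2 and control-GFP 1 and at 0.775% and 2.33% in the knockout-Acsl4 libraries.

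At least 1 library marked 61 of the 129 members (47.3%), against 24.5% of all genes, and 68 members were marked in none. At least 2 libraries marked 33 members (25.6%, against 13.9% of all genes), at least 3 marked 12 (9.30%, against 6.51%) and at least 4 marked 5 (3.88%, against 1.62%). No member was marked in all 6. The most frequent combination was knockout-GFP 2 with control-GFP 1 and no other library, which held 14 of the 129 members. It was also the most frequent among marked genes of any kind, with 1154 of all 21883 genes.

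Wipi1, a WD-repeat protein that binds phosphoinositides on the forming autophagosome, was marked in the most libraries, 5 of 6. Its peak scores (the values given by the authors, taken as −log10 of a q-value) were 4.32 and 2.50 in knockout-Acsl4 1 and 2, 8.42 and 22.2 in knockout-GFP 1 and 2, and 17.7 in control-GFP 1, with no peak in control-GFP 2. As scores depend on each library's depth, they were ranked within their own list, where they lay at the 53.9 and 71.5 percentile in knockout-Acsl4 1 and 2, the 86.8 and 96.4 percentile in knockout-GFP 1 and 2, and the 91.9 percentile in control-GFP 1. The 5 peaks were centred 286 to 387 bp upstream of the gene start (chromosome 11, gene from 109573521 to 109611389, minus strand). They were 160 to 479 bp wide and overlapped each other in every pair of libraries. Wipi1 was the only member marked in knockout-Acsl4 1, and the only member marked in both knockout-Acsl4 libraries.

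Another 4 members were marked in all 4 GFP libraries, while both knockout-Acsl4 lists lacked them. Chmp5, an ESCRT-III subunit (chromosome 4, 40948553 to 40965302), had score percentiles of 70.1 and 74.7 in knockout-GFP 1 and 2 and of 84.9 and 63.8 in control-GFP 1 and 2. Vps26c, which with Vps35l and Vps29 forms retriever, a retromer-like recycling complex (chromosome 16, 94497724 to 94526629), stood at 75.2 and 70.9 in knockout-GFP 1 and 2, and at 67.4 and 64.5 in control-GFP 1 and 2. These 2 genes thus ranked above the middle of every list in which they were called. Vps35, the scaffold of retromer (chromosome 8, 85260385 to 85299517), stood at 59.7 and 80.3 in knockout-GFP 1 and 2, and at 38.3 and 40.1 in control-GFP 1 and 2. Atp6v1d, subunit D of the V-ATPase rotor (chromosome 12, 78842982 to 78862008), stood at 93.6 and 71.8 in knockout-GFP 1 and 2, and at 39.0 and 42.4 in control-GFP 1 and 2. Vps35 and Atp6v1d ranked higher in both knockout-GFP lists than in both control-GFP lists, but ranks from lists of different lengths show no change. The peaks of knockout-GFP 1 and control-GFP 2 did not overlap at Vps26c (69 bp apart) or at Vps35 (76 bp apart). In every other pair of GFP libraries the peaks of these 4 genes overlapped.

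Promoters are shown for the members marked in 4 or more libraries, where the table holds one, since their peaks lay on or next to these windows. All 4 peaks each of Chmp5, Vps26c and Atp6v1d overlapped the window, as did 4 of the 5 Wipi1 peaks, whose centres lay upstream of it, while the knockout-Acsl4 2 peak of Wipi1 lay wholly upstream. Each line gives 250 bases before and 50 bases after the gene start from RefSeq (GRCm38.p6), 5′ to 3′ on the gene's strand. Capitals mark every match, on either strand, to CACGTG (the core of the E-box and of the element that TFEB binds), GTAAACA (forkhead factors, FOXO1 included), CCAAT (bound by NF-Y), GGGCGG (SP family), TGACG (core of CREB and ATF sites), CCGGAAG (ETS family) and the TATA-box letters TATAAA. The windows are Wipi1 (chr11:109611340-109611639, minus strand), Chmp5 (chr4:40948303-40948602, plus strand), Vps26c (chr16:94526580-94526879, minus strand), Atp6v1d (chr12:78861589-78861888, minus strand) and, for their CACGTG matches and not for their peaks, Vps26a (chr10:62486549-62486848, minus strand) and Lamtor4 (chr5:138255232-138255531, plus strand). The table holds no entry for Vps35.
Wipi1: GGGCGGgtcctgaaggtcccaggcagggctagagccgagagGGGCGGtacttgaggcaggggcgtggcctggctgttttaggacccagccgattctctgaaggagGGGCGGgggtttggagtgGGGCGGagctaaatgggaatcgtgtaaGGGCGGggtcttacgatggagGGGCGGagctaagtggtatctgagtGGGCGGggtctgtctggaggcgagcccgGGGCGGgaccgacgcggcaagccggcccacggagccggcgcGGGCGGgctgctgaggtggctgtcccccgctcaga
Chmp5: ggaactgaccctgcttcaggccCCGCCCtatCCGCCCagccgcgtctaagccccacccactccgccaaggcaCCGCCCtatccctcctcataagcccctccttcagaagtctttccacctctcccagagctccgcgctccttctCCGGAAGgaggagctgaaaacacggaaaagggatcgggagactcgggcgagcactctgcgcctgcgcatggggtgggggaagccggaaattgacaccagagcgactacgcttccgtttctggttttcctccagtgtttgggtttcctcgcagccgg
Vps26c: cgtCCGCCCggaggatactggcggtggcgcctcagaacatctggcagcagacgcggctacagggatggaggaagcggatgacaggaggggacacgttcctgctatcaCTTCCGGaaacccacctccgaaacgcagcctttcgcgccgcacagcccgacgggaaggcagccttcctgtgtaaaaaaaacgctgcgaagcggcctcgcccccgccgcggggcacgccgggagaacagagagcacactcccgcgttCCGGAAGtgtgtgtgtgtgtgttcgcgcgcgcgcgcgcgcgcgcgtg
Atp6v1d: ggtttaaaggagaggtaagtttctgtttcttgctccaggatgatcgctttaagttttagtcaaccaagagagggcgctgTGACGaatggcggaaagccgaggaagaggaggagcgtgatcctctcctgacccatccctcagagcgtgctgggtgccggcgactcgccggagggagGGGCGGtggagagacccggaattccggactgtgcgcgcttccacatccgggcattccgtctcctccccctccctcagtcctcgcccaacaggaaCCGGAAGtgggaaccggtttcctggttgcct
Vps26a: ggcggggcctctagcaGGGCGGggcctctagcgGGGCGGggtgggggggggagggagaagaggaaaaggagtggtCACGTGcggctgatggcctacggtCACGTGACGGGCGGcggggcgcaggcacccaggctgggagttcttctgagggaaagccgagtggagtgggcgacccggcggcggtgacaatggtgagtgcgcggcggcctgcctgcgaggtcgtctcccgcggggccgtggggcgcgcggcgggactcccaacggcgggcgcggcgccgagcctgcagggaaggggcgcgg
Lamtor4: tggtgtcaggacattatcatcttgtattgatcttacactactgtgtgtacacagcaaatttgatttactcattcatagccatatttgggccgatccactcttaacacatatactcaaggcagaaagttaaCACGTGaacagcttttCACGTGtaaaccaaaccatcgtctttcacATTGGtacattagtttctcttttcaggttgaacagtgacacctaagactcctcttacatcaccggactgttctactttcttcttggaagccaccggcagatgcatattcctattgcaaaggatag

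The Wipi1 window held 9 GGGCGG matches and none of the other 6 motifs. The Chmp5, Vps26c and Atp6v1d windows each held CCGGAAG, at bases −106, −143 and 3, and 19 from the gene start. Vps26a held CACGTG at −175 and −151, the second of which runs into a TGACG match at −147 and a GGGCGG match at −143. Lamtor4 held CACGTG at −120 and −104 and a CCAAT match at −75. A promoter entry exists for 93 of 129 members (72.1%), with 112 windows. CACGTG occurred in 18 of these 112 windows (16.1%), against 7.84% of all 21262 windows of protein-coding genes. It was in 10 of the 44 member windows that a peak overlapped (22.7%), against 10.7% of all windows with a peak. The 10 belong to Atg3, Atg5, Atp6v0d1, Atp6v1a, Lamtor1, Snx5, Snx8, Vps33a and, with 2 windows, Vps26a. The 2 Vps26a windows overlap each other, and the match at −175 lies in both, so it counts in each. CCAAT was in 13 of the 44 (29.5%), against 48.4% of all windows with a peak, and GTAAACA in none of the 44, against 2.12%. GGGCGG was in 77.3% of the 44 and 77.0% of all windows with a peak, TGACG in 36.4% and 40.3%, CCGGAAG in 27.3% and 21.7%, and TATAAA in 6.82% and 4.02%. A match is a run of letters, not a bound site. As fewer than 80% of members have an entry, base composition could be compared only over the 93. A CpG-rich window (observed to expected CpG over 0.6) was held by 76 of the 93, against 8887 of 17491 genes. Among these, the marked share was 21.1% of members against 15.3% of genes in knockout-GFP 1, and 40.8% against 31.7% in knockout-GFP 2. It was 38.2% against 29.3% in control-GFP 1, and 6.58% against 3.68% in control-GFP 2. How far base composition accounts for the members' higher share was not tested.

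Genes that build and expand the autophagosome were marked mainly in knockout-GFP 2 and control-GFP 1. Of the 18 Atg genes, none was marked in either knockout-Acsl4 library, 1 and 9 in knockout-GFP 1 and 2, and 10 and 0 in control-GFP 1 and 2. Atg2b, a lipid transfer protein at the edge of the growing membrane, was the one Atg gene marked in knockout-GFP 1, at the 57.4 percentile, with 49.1 in knockout-GFP 2 and 5.34 in control-GFP 1. Atg9a, the lipid scramblase that seeds the autophagosome, stood at the 83.7 percentile in knockout-GFP 2 and the 79.8 percentile in control-GFP 1. Its partner Atg2a stood at 65.8 in knockout-GFP 2 and 58.3 in control-GFP 1. All 6 genes of this membrane step, counted with Wipi1, Wipi2 and Atg9b, were marked in at least 1 library, and 5 in at least 2. Of all genes, 24.5% and 13.9% were. The step was put together after values were seen. Atg9b counted by a single control-GFP 1 peak, 8554 bp from its start, that also reached an end of Nos3.

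In the conjugation system that attaches LC3 to membranes, 6 of 11 genes were marked, none of them in knockout-GFP 1. Atg3, the enzyme that transfers LC3 to lipid, had percentiles of 70.9 in knockout-GFP 2 and 57.5 in control-GFP 1. Atg12, the ubiquitin-like protein joined to Atg5, had 69.0 in knockout-GFP 2 and 39.1 in control-GFP 1. Atg16l2 had 82.9 in knockout-GFP 2 and 42.0 in control-GFP 1, and the LC3-processing proteases Atg4d and Atg4b 49.2 and 42.1 in knockout-GFP 2 and 64.6 and 38.5 in control-GFP 1. The Atg4b peaks of the 2 libraries lay 188 bp apart and did not overlap. Atg5 was marked in control-GFP 1 alone, at 52.4. Among the initiators, the kinase Ulk1 was marked in knockout-GFP 2 at the 6.15 percentile and in control-GFP 1 at 51.9, and its partner Atg101 in knockout-GFP 2 at 31.2. Wipi2, which brings Atg16l1 to the membrane, was marked in knockout-GFP 1 and 2 at 25.2 and 49.2. Becn1, Ulk2, Sqstm1 (the cargo receptor p62) and Tfeb had no gene-end peak in any library. Tfeb had a peak inside the gene, more than 1000 bp from its ends, in control-GFP 2.

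**Figure D2:**
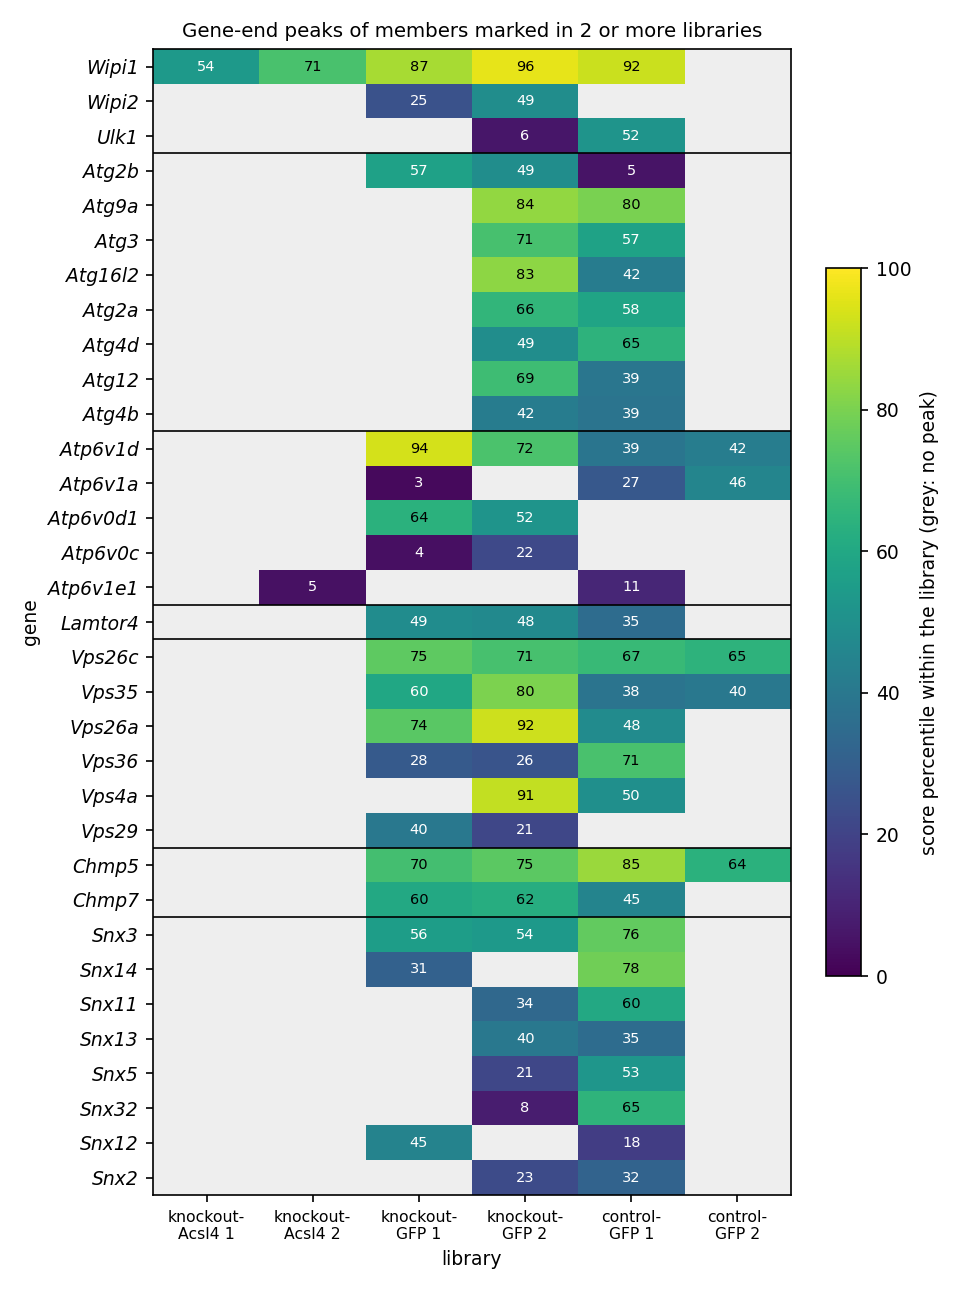
Score percentile within each list (colour and number, 0 to 100) for the 33 members marked in at least 2 libraries (rows) in the 6 libraries (columns), with grey for no peak and lines between classes. Wipi1 is the only row filled in both knockout-Acsl4 columns, and 8 of the 33 genes are Atg genes.

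Of the 23 Atp6v genes, 10 had a gene-end peak in at least 1 library. For the sectors below, 9 were counted as V0 and 13 as V1 genes. The marked counts were 0 and 1 in knockout-Acsl4 1 and 2, 4 and 5 in knockout-GFP 1 and 2, and 5 and 3 in control-GFP 1 and 2. Of the membrane-embedded V0 sector, Atp6v0d1 stood at 64.0 and 51.7 in knockout-GFP 1 and 2, and the proton-carrying ring subunit Atp6v0c at 4.26 and 22.3. Neither had a peak in a control-GFP library, and V0 marks numbered 2 and 3 in knockout-GFP 1 and 2, and 0 and 1 in control-GFP 1 and 2. In the ATP-hydrolysing V1 sector, 2 and 2 genes were marked in knockout-GFP 1 and 2, and 5 and 2 in control-GFP 1 and 2. Whether the sectors differ was not tested. Atp6v1a, the catalytic subunit, stood at 2.58 in knockout-GFP 1 and at 27.4 and 45.5 in control-GFP 1 and 2. Its peaks in control-GFP 1 and control-GFP 2 lay 769 bp apart, and the control-GFP 2 peak was centred 908 bp upstream of the nearest listed gene start. Atp6v1e1, a stator subunit, was marked in knockout-Acsl4 2 at 4.55, by a peak 26863 bp from its start at the other end of the gene, and in control-GFP 1 at 10.7 by a peak 26 bp from its start. Atp6v0e2 was marked in control-GFP 2 only, at 21.5.

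Of Ragulator, Lamtor4 was marked at the 48.6 and 47.6 percentile in knockout-GFP 1 and 2 and at 35.5 in control-GFP 1, and the membrane anchor Lamtor1 in knockout-GFP 2 at 54.2. The 3 Lamtor4 peaks were centred 211 to 330 bp downstream of the listed gene start, past the end of the printed window.

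Retromer, the coat that carries receptors from endosomes to the Golgi, had 3 of its 4 genes marked in each knockout-GFP library, and 2 and 1 in control-GFP 1 and 2. Besides Vps35 these were Vps26a, at 74.3 and 92.5 in knockout-GFP 1 and 2 and 48.3 in control-GFP 1, and Vps29, at 40.2 and 21.2 in knockout-GFP 1 and 2 with no control-GFP peak. Vps26b had none. Vps35l, the scaffold of retriever, was marked in control-GFP 2 only, at 83.3, the highest of that library's 7 member peaks. The 5 genes of the tethering complexes GARP and EARP (Vps50 to Vps54) had no gene-end peak in any library, as was so for 75.5% of all genes. Of the 7 genes of HOPS and CORVET, which tether endosomes and lysosomes for fusion, Vps18, Vps33a and Vps11 were marked in a single library each. The Vps11 mark was the third in knockout-Acsl4 2, at the 73.7 percentile, 618 bp from the gene's higher coordinate.

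The ESCRT genes were marked in part. Chmp7, which also acts at the nuclear envelope, stood at 60.4 and 62.2 in knockout-GFP 1 and 2 and at 45.1 in control-GFP 1. Vps36 of ESCRT-II stood at 28.1 and 25.9 in knockout-GFP 1 and 2 and at 71.3 in control-GFP 1. Vps4a, the ATPase that disassembles ESCRT-III, stood at 90.8 in knockout-GFP 2 and 49.9 in control-GFP 1. Chmp2b was marked in control-GFP 1 at 11.5, and the remaining 7 Chmp genes in no library.

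Sorting nexins, which bind phosphoinositides and bend endosomal membranes, had 16 of 30 genes marked. None was marked in a knockout-Acsl4 library, 4 and 10 in knockout-GFP 1 and 2, and 11 and 0 in control-GFP 1 and 2. Snx3, a retromer adaptor, was marked in 3 libraries, at 55.6 and 53.9 in knockout-GFP 1 and 2 and 76.0 in control-GFP 1. Snx14 stood at 30.9 in knockout-GFP 1 and 78.3 in control-GFP 1, Snx11 at 33.9 in knockout-GFP 2 and 60.4 in control-GFP 1, and Snx13 at 40.0 in knockout-GFP 2 and 35.5 in control-GFP 1. Of the members that pair to form membrane tubules, Snx5, Snx32 and Snx2 were marked in knockout-GFP 2 and control-GFP 1, and Snx1 and Snx6 in knockout-GFP 2 alone. Snx12 was marked in knockout-GFP 1 and control-GFP 1 by peaks 21 bp apart.

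**Figure D3:**
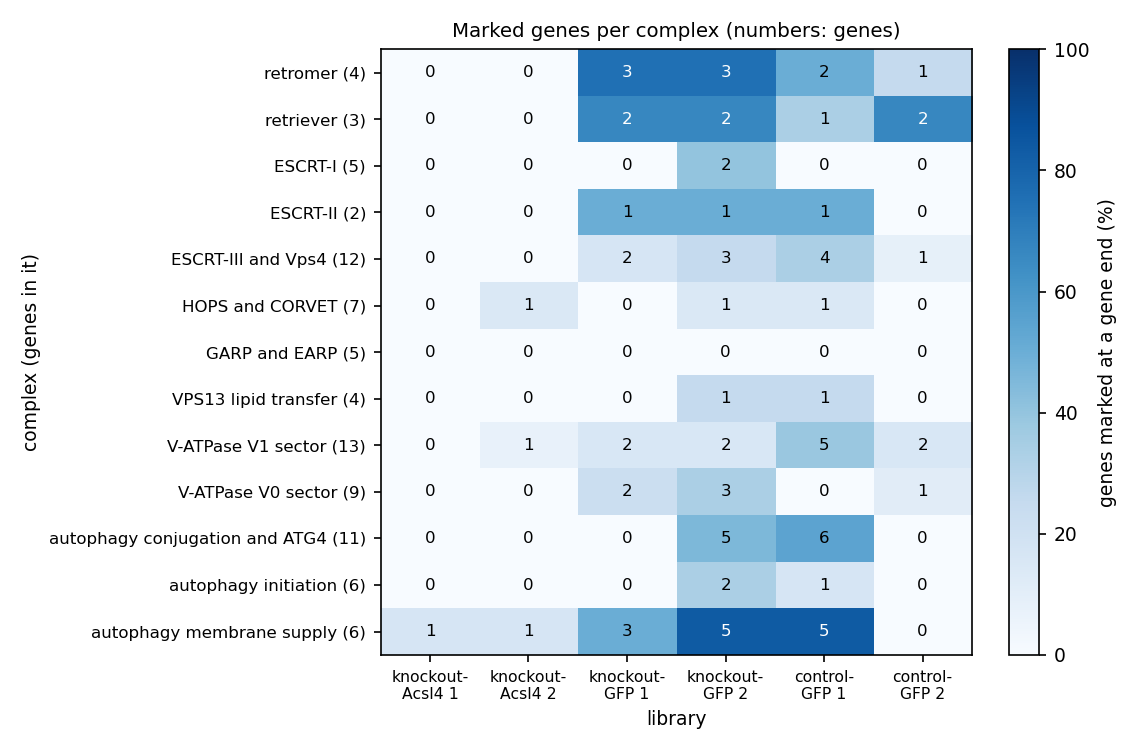
Number of genes marked (numbers) and their percent of the complex (colour) for 13 complexes or steps (y axis, with their gene number) in each library (x axis). Retromer reached 3 of 4 genes in both knockout-GFP libraries, and GARP and EARP stayed at 0 of 5 throughout. Of all genes, 8.19% and 17.3% were marked in knockout-GFP 1 and 2, and 75.5% in no library. The sorting into complexes was chosen after values were seen.

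The comparison of knockout-Acsl4 with knockout-GFP addresses added Acsl4, an acyl-CoA synthetase for long-chain polyunsaturated fatty acids, in islets lacking Rictor. The members' marked share averaged 1.55% ± 1.10 in knockout-Acsl4 and 23.3% ± 12.1 in knockout-GFP (SD, n = 2 each), a difference of −21.7 percentage points (two-sided exact permutation p = 0.333, the smallest that 2 libraries against 2 allow). No member was marked in both knockout-Acsl4 libraries and neither knockout-GFP library (0.00914% of all genes had this pattern). The reverse held for 14 members, 10.9% of the 129, against 5.79% of all genes. They were Vps26a, Atp6v1d, Vps26c, Chmp5, Vps35, Chmp7, Atp6v0d1, Snx3, Atg2b, Lamtor4, Wipi2, Vps29, Vps36 and Atp6v0c, in falling order of mean score percentile from 83.4 to 13.3. Both knockout-GFP libraries marked 15 members, so Wipi1 was the only one of the 15 outside the 14, and over all genes 1266 of 1445 had the pattern. Genes of any kind marked at an end numbered 224 and 344 in knockout-Acsl4 1 and 2, against 1792 and 3786 in knockout-GFP 1 and 2. With all lists cut to their best 525 peaks, none of the 14 remained, and leaving out knockout-GFP 1 gave 40.

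Knockout-GFP against control-GFP addresses the loss of Rictor, the defining subunit of mTORC2. The members' marked share averaged 23.3% ± 12.1 in knockout-GFP and 18.6% ± 18.6 in control-GFP (SD, n = 2 each), a difference of 4.65 percentage points (two-sided exact permutation p = 1) that was smaller than the spread within either group. Without control-GFP 2 it was −8.53 and without knockout-GFP 2 −3.88. Vps29, Wipi2, Atp6v0d1 and Atp6v0c were marked in both knockout-GFP libraries and neither control-GFP library, 3.10% of members against 1.04% of all genes. Their mean score percentiles were 30.7, 37.2, 57.8 and 13.3. No member had the reverse pattern, which 0.0914% of all genes had. Without control-GFP 1 the knockout-GFP-only count was 11, and without knockout-GFP 1 it was 16. Without control-GFP 2 it was 4, while the control-GFP-only count was 13. With equal list lengths the knockout-GFP-only count was 0.

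Knockout-Acsl4 against control-GFP gives the joint difference. The share averaged 1.55% ± 1.10 in knockout-Acsl4 and 18.6% ± 18.6 in control-GFP (SD, n = 2 each), a difference of −17.1 percentage points (two-sided exact permutation p = 0.333). No member was marked in both knockout-Acsl4 libraries and neither control-GFP library (0.00457% of all genes). Chmp5, Vps26c, Atp6v1d, Vps35 and Atp6v1a had the reverse pattern, 3.88% of members against 1.32% of all genes. When the 2 control-GFP peaks also had to overlap each other, 4 of these counted, since those of Atp6v1a do not. Without control-GFP 2 the count was 39, and with equal list lengths 0. The 3 comparisons share libraries and are not independent of each other.

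Member peaks sat close to gene starts. Over the 6 libraries there were 112 member peaks, with a median distance of 94.5 bp from centre to nearest gene end, against 115 bp for all gene-end peaks, and 87.5% lay within 300 bp of it, against 81.1%. The gene start was known for 89 of them, of which 82 (92.1%) lay within 300 bp of a start, against 81.4% of the peaks of all genes. Of the 82, 55 were centred upstream of the start and 27 at or downstream of it. All 17 such peaks in knockout-GFP 1 and all 33 in knockout-GFP 2 lay within 300 bp, as did 28 of 31 in control-GFP 1 and 4 of 5 in control-GFP 2. The peak at the far end of Atg9b in control-GFP 1 was 8554 bp from its start and also reached an end of Nos3.

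**Figure D4:**
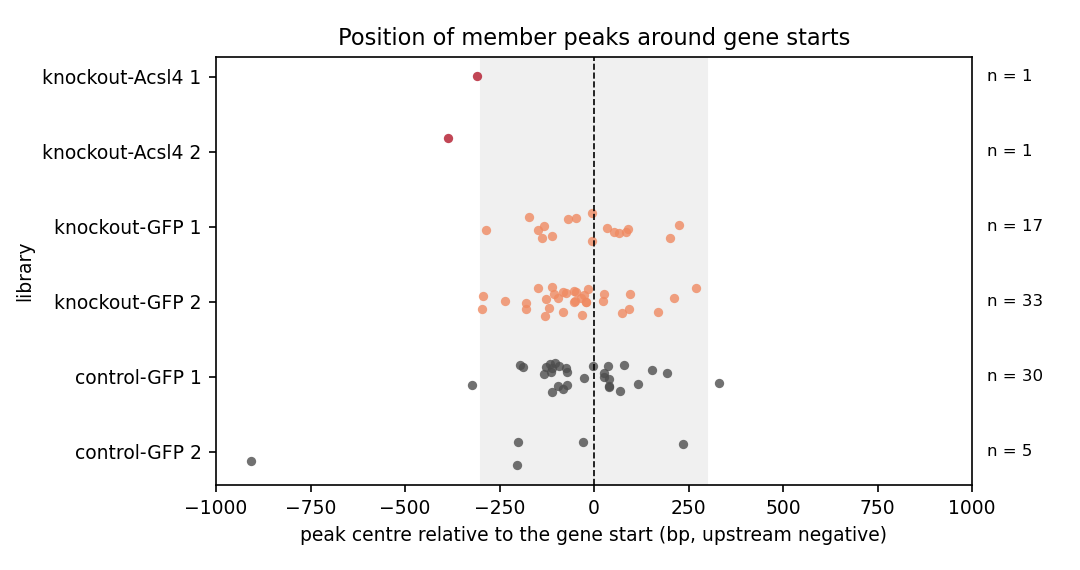
Centre of each member peak relative to the nearest listed gene start (x axis, bp, upstream negative, range 1000 bp to each side) in each library (y axis), for members with a promoter entry. Grey shading marks 300 bp to each side, which holds all points of the knockout-GFP libraries.

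Some member peaks were shared with a neighbouring gene. Of the 112 peaks, 37 (33.0%) also reached a gene end of another protein-coding gene. Over all gene-end peaks, each counted once, the share was 20.2%. A peak at the ends of several genes has more chances to reach a member, so the 2 shares are not alike and show no excess. The 17 members concerned included Chmp5, beside the co-chaperone gene Bag1, Atp6v1d, beside the translation initiation gene Eif2s1, and Vps35, beside the replication gene Orc6, each in 4 libraries. They also included Atp6v1a beside Naa50 and Atg2b beside Gskip, each in 3 libraries. Atg3 beside Slc35a5, Atg9a beside Ankzf1, Atg12 beside Ap3s1, Vps29 beside Rad9b and Atp6v0d1 beside Agrp followed, each in 2. For these peaks the lists do not tell which of the neighbours the open site serves. Wipi1, Vps26c, Vps26a and Snx3 reached no other gene end.

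The median width of member peaks was 208 bp, against 225 bp for all gene-end peaks, and the median score percentile 48.5, against 53.3. Within libraries the median percentile was 55.6 in knockout-GFP 1, against 53.2 for all gene-end peaks there, 49.2 in knockout-GFP 2, against 51.9, and 42.0 in control-GFP 1, against 54.0. Of members marked in knockout-GFP 2, 61.0% were also marked in control-GFP 1, and the same share held the other way, since each had 41 and they shared 25. Over all genes those shares were 67.1% and 69.6%. The 15 members shared by the knockout-GFP libraries were 78.9% of those in knockout-GFP 1 and 36.6% of those in knockout-GFP 2, against 80.6% and 38.2% over all genes. The control-GFP libraries shared 5, which were 12.2% of those in control-GFP 1 and 71.4% of those in control-GFP 2, against 9.53% and 79.5% over all genes. The members' shares lay near those of all genes. In 69 of 76 cases in which a member was marked in a pair of libraries, its peaks in that pair overlapped.

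Peaks inside members and away from gene ends numbered 1 and 13 in knockout-Acsl4 1 and 2, 0 and 3 in knockout-GFP 1 and 2, and 2 and 4 in control-GFP 1 and 2. They made up 0.190% and 0.221% of the peaks in knockout-Acsl4 1 and 2, 0% and 0.0705% in knockout-GFP 1 and 2, and 0.0450% and 0.246% in control-GFP 1 and 2. All protein-coding genes together had 114 and 2268 such peaks in knockout-Acsl4 1 and 2, 343 and 611 in knockout-GFP 1 and 2, and 734 and 468 in control-GFP 1 and 2, so knockout-Acsl4 2 had the most over all genes as well. The 13 of knockout-Acsl4 2 lay in 11 genes, with the highest score percentile in Snx25 (95.7), followed by Atg10 (87.3) and Vps8 (84.2). Snx15 had such a peak at overlapping positions in knockout-GFP 2 (44.4 percentile) and control-GFP 1 (54.9), and Chmp4c in knockout-GFP 2 (25.9) and control-GFP 2 (83.3).

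A list of 72 other genes of the same pathways was counted in the same way. It was marked at 1 and 2 genes in knockout-Acsl4 1 and 2, 13 and 25 in knockout-GFP 1 and 2, and 21 and 0 in control-GFP 1 and 2. Over all genes the marked shares in these libraries were 1.02% and 1.57%, 8.19% and 17.3%, and 16.7% and 2%. At least 1 library marked 37 of the 72 (51.4%), against 24.5% of all genes. This list, too, was chosen with earlier results of these data known, so it tests no excess. Uvrag, a partner of Becn1, was marked in 4 libraries, knockout-Acsl4 1 among them. Npc2, the lysosomal cholesterol carrier, Mon1b, which activates Rab7, the autophagy receptors Calcoco1 and Nbr1, and the lipid scramblase Tmem41b were marked in both knockout-GFP libraries and control-GFP 1. By step, 12 of 24 lysosomal genes, 7 of 14 ESCRT and endosome genes, 5 of 12 genes of mTORC1 at the lysosome and 13 of 22 other autophagy genes were marked in at least 1 library.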

How the data were processed

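A headerless peak list for every library, with position, name and a value per peak, is what the authors deposited. The submitters' processing notes list the tools BWA 0.7.10, MACS2 2.1.1, SAMtools, Trimmomatic and FastQC, with neither order nor parameters. The deposited value was taken as −log10 of a q-value, since the smallest, 1.3023, lies just above 1.30, the −log10 of 0.05, and was used only to rank peaks within a list. Those notes give human builds (hg38, GRCh38), but coordinates were treated as mouse GRCm38, whose gene ends they match, and are given 1-based. Genes were the protein-coding ones of the RefSeq table of GRCm38.p6, without the mitochondrial chromosome. An overlap of 1 bp counted. Depth is unknown, and the number of peaks limits precision.

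Members and gene lists were chosen with earlier results of these data known. Named are members marked in 4 or more libraries, those with the both-and-neither pattern, those marked in control-GFP 2 or a knockout-Acsl4 library, and up to 4 per class. The sorting of members into complexes, and single genes named beyond this rule, were chosen after values were seen. Groups were compared by exact permutation over libraries and by counts beside all genes. The marking step was tested on simulated data. Alternatives were other windows, gene starts only, stricter scores, equal list lengths, peaks lying at least 50% in the window, autosomes, pairing and leaving out libraries. Calculations used Python 3.11.15, pandas 2.3.3 and SciPy 1.17.1.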

Additional observations from a re-analysis of the deposited data

How the results depend on the processing

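The members' share in the 5 longer lists and the pattern counts above 0 depended on list length, and the counts also on single libraries. With equal lists of 525 peaks the marked share was 0% in knockout-Acsl4 2, 1.55% and 2.33% in knockout-GFP 1 and 2, and 0.775% in control-GFP 1 and in control-GFP 2, and the counts of 4, 14 and 5 members were all 0, as fewer peaks were used. With the better 50% of each list it was 7.75% and 14.7% in knockout-GFP 1 and 2 and 12.4% in control-GFP 1, and the counts of 14 and 5 became 8 and 2. In the promoter window of 300 bases, chosen after seeing the data, knockout-Acsl4 2 had 0%. Windows of 500 and 3000 bp, gene starts only, autosomes only and the rule that 50% of a peak must lie in the window left each library's share within its interval and each pattern count within 1.5 times its value.

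For knockout-GFP against control-GFP the difference reversed when libraries were left out, with a range of −8.53 to 17.8 over single libraries. It was also −8.53 without control-GFP 2 and knockout-Acsl4 2 together, chosen after seeing the data, where the control-GFP-only count was 13 and, for knockout-Acsl4 against control-GFP, the control-GFP-only count 40. Over single libraries left out, the knockout-GFP-only count ran from 4 to 16 and the control-GFP-only count from 0 to 13. Against knockout-GFP, the knockout-Acsl4-only count ran from 0 to 2 and the knockout-GFP-only count from 14 to 40. Against control-GFP, the knockout-Acsl4-only count ran from 0 to 1 and the control-GFP-only count from 5 to 39. The cause of these changes beyond the number of lists was not tested.

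The replicate numbers are those of the sample titles, and the title of knockout-Acsl4 2 also carries a tag that ends in 3, so pairing by number is uncertain for that library. With the replicate number as a block, pairing gave the same differences of −21.7 and −17.1 (exact sign-flip permutation p = 0.5, the smallest possible) and 4.65 (p = 1). Crossed pairing of knockout-GFP with control-GFP, chosen after seeing the data, also gave no call. The deviations of same-numbered libraries correlated at −0.225, −0.0474 and −0.0625. With 2 libraries per group, the deviations of a group's libraries mirror each other, so replicates 1 and 2 give the same value. These values cannot tell whether same-numbered libraries share mice or handling. In all, 137 of 166 recomputed values were labelled as unchanged. The label meant a share inside its interval, a difference of the same sign, or a count that was equal or within 1.5 times. Paired differences keep their value by construction, so the total does not measure how stable the results are. Absence of a peak in the 525-peak list of knockout-Acsl4 1 says little about any member.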
